A study of Mus musculus with 9 samples.

Results

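Interferon-stimulated effector genes encode the proteins with which a cell answers interferon: the ubiquitin-like modifier ISG15, RNA sensors such as RIG-I, antiviral GTPases, restriction factors in membranes and enzymes that degrade or modify RNA. The set described here is a list of 47 mouse genes named by symbol, and all 47 were found among the 56289 genes of the deposited table. The list names genes by their known role, and no threshold on values of these libraries is part of it, but it was chosen with earlier results of these data known. Of the 47, 45 were detected (a value over 0 FPKM) in 3 or more of the 9 libraries and were tested, and Oasl1 and Epsti1 were not. FPKM divides the fragments of a gene by the length of its transcripts and by sequencing depth, so levels of different genes can be compared on it.

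The study asked how WBT, a Chinese herbal tablet prescribed for rheumatoid arthritis, alters the transcriptome of TNF-α-stimulated cells labelled RAW264.7, a BALB/c mouse line grown as a macrophage model. Poly(A) RNA was sequenced from 3 untreated cultures (Con), 3 treated with recombinant human TNF-α for 24 h and 3 treated with TNF-α together with the preparation, also for 24 h. In the labels the last treatment is WBP, here read as the TNF-α+WBT group of the paper. No culture received WBT without TNF-α and none received interferon, so the answer of these cells to interferon itself was not measured.

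Interferons signal through paired receptors and kinases of the JAK family to transcription factors that bind promoters, at the interferon-stimulated response element (ISRE) for type I and type III interferons and at the gamma-activated site (GAS) for interferon-γ. IRF factors such as IRF1 also bind ISRE sequences, and TNF-α is best known for activating NF-κB, which binds the κB motif.

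The libraries did not carry the marker pattern of macrophages. Of 14 macrophage markers, 7 (Ptprc, Spi1, Itgam, Adgre1, Tyrobp, Ctss and Cybb) were listed at 0 in all 9 libraries and only Cd14 lay above 1 FPKM throughout, whereas 10 of 12 fibroblast markers and 8 of 12 Schwann cell markers did. The summed level of the fibroblast markers ran from 3909 to 4144 FPKM in Con and from 4291 to 4385 FPKM with TNF-α. The Schwann cell sum ran from 926 to 983 FPKM in Con and from 751 to 813 FPKM with TNF-α, and the macrophage sum from 6.05 to 7.44 and from 7.05 to 8.07 FPKM. The Con and TNF-α ranges of the fibroblast and Schwann cell sums did not overlap while those of the macrophage sum did, and their part in the results on the effector genes was not tested. In bulk RNA, a change in the share of cells that express a gene and a change in the RNA per cell cannot be told apart. The estimated depth was 16840000 to 26035000 fragments per library, at 16840000 to 19820000 in TNF-α+WBT, 18885000 to 22420000 in TNF-α and 20220000 to 26035000 in Con.

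RefSeq promoters of the GRCm38.p6 build, reaching from 250 bases before the start of transcription to 50 bases after it, were found for 36 of the 47 genes. The ISRE core, searched as GAAANNGAAA on both strands, was present in the promoters of 19 of the 36 (52.8%) and in 3.99% of the 27025 genes that the promoter table holds. The following stretches, written 5′ to 3′ on the strand of the gene with the core bases in capitals, show the core in 3 genes that rose with TNF-α (Bst2, Gbp3 and Gbp7) and in 4 that did not pass the test (Isg15, Ifit1, Oas1a and Rsad2). All end before the start of transcription, and a core on the opposite strand reads as TTTC repeats. In Isg15 and Ifit1 every TNF-α library still lay above every Con library. Oas1a and Rsad2 had at most an estimated 3.2 and 12.4 fragments in any library, so missing the test does not show that these 4 genes did not respond.
Bst2 (chr8:71537563-71537626, minus strand): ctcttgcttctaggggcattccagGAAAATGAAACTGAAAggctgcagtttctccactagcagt
Gbp3 (chr3:142559975-142560025, plus strand): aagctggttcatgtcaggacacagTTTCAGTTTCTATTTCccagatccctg
Gbp7 (chr3:142530259-142530316, plus strand): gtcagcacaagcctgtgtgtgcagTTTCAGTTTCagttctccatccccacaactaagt
Isg15 (chr4:156200851-156200920, minus strand): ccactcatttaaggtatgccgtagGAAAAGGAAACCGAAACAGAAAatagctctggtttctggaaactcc
Ifit1 (chr19:34640761-34640837, plus strand): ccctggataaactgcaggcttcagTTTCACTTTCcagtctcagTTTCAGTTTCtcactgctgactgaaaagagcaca
Oas1a (chr5:120907526-120907569, minus strand): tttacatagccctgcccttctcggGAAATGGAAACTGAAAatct
Rsad2 (chr12:26456539-26456596, minus strand): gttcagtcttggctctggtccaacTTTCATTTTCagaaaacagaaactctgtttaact
In Bst2, Gbp3, Isg15 and Oas1a the cores overlap, so that repeats of GAAA follow each other at a fixed spacing, whereas Gbp7 and Rsad2 hold a single core. The core was found in 7 of the 11 matched genes that rose with TNF-α (Ddx58, Gbp2, Gbp3, Gbp7, Irgm1, Bst2 and Ifitm3) and in 12 of the 25 other matched genes (Isg15, Ifit1, Ifit3, Ifit3b, Oas1a, Oas3, Ifih1, Eif2ak2, Rsad2, Gbp5, Igtp and Trim30a). The GAS core, TTCNNNGAA, was present in 10 of the 36 genes (27.8%) against 9.55% of all genes of the table, and the κB motif in 9 of the 36 (25%) against 9.55%. In Bst2 the GAS match overlaps an ISRE core, and the κB match overlaps the GAS match. A match describes these letters within the window and does not show that a factor bound there.

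TNF-α raised a subset of the effector genes. In 1 limma model over the 9 libraries on log2(FPKM + 0.1), which understates the changes of low genes, 14 of the 45 tested genes (31.1%) were higher in TNF-α than in Con at a Benjamini-Hochberg adjusted p under 0.05 and 0 were lower, where 2.94% of all 25417 tested genes were called higher and 1.93% lower. The 14 were Gbp2, Gbp3, Gbp7, Bst2, Ifitm3, Parp9, Parp12, Parp14, Ddx58, Zbp1, Oasl2, Irgm1, Ifi35 and Samd9l. All 14 had a mean of at least 1 FPKM, a level that 30 of the 47 genes reached and at which 5.09% of all genes were called higher. The counts by role group given below are parts of the 14, from groups of 2 to 11 genes, and describe single genes. The median log2 fold change was 0.40 over the 45 tested genes and 0.0028 over all tested genes. Because the list was chosen with earlier results of these data known, its contrast with all genes is a description only. The study's cut-offs, a change of more than 2-fold and an unadjusted p under 0.05, were also applied to the limma fit, not to the study's own test. By them 7 effector genes were higher, where 1.37% of all genes were, and 0 were lower, for which no share of all genes is given here. Of the 7, 6 were among the 14, and Ifit1, with a mean of 0.313 FPKM and an adjusted p of 0.203 in limma, was not. In 24 of the 45 genes every TNF-α library lay above every Con library and in 0 every one lay below, where 11.1% and 10.2% of all genes did so. The count of 14 fell to 8 without Con replicate 1, to 9 without Con replicate 3 or TNF-α replicate 2, and to 9 when only the Con and TNF-α libraries were fitted. For 1 gene in groups of 3, the exact permutation test (two-sided) has a smallest p of 0.1, and it gave 0.1 for each of the 14.

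**Figure D1:**
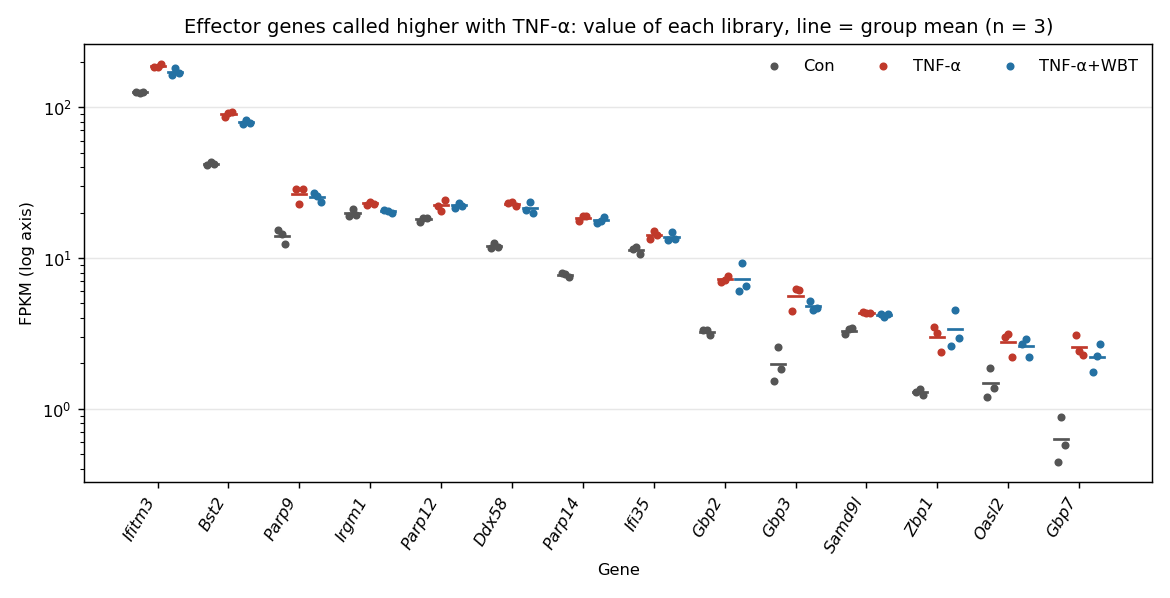
FPKM of the 14 called genes on a log axis, with 1 point per library and a line at each group mean (n = 3 libraries). In all 14 the TNF-α points lie above the Con points, from Ifitm3 at a mean of 161 FPKM over the 9 libraries down to Gbp7 at 1.81.

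Of the 4 listed guanylate-binding proteins, GTPases that attack the vacuoles of intracellular pathogens, 3 rose, and Gbp7 and Gbp3 had the highest log2 fold changes of the list. Of all tested genes, 2.94% were called higher. Gbp7 had 0.440, 0.883 and 0.578 FPKM in the untreated cultures, 3.06, 2.40 and 2.26 in those given TNF-α and 1.75, 2.23 and 2.67 in those given TNF-α and WBT. Its log2 fold change of 1.90 (SE 0.25, adjusted p = 0.00330 in limma) was the highest of the 45 genes, and the TNF-α and Con values did not overlap. Gbp3 measured 1.53, 2.56 and 1.84 FPKM in untreated cultures, 4.47, 6.21 and 6.13 after TNF-α and 5.21, 4.52 and 4.64 when WBT was added. Gbp2 measured 3.31, 3.35 and 3.09 FPKM without treatment, 6.88, 7.11 and 7.60 under TNF-α and 6.05, 9.26 and 6.48 under TNF-α plus WBT, where replicate 2 was the highest of all 9 libraries. The mean levels of Gbp3 and Gbp2 with TNF-α were 2.83 and 2.22 times those in Con, with log2 fold changes of 1.47 and 1.12 (SE 0.19 and 0.15, adjusted p = 0.00310 and 0.00280 in limma). These genes lie near each other on chromosome 3, with Gbp7 at chr3:142530342-142550149, Gbp3 at chr3:142560026-142573209 and Gbp2 at chr3:142620602-142638008 in GENCODE M21 coordinates. Gbp5, their neighbour at chr3:142493978-142522344, whose protein promotes inflammasome assembly, reached at most 0.0594 FPKM in any library. Gbp7 shares 637 exon bases with the overlapping gene model Gm43802, so part of its value could belong to that model.

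Both membrane restriction factors rose, and they were the most abundant effector genes. Ifitm3, which blocks the fusion of viruses with endosomes, stood at 126, 125 and 126 FPKM in Con, 185, 183 and 193 in the TNF-α cultures and 164, 182 and 169 in those given both. Bst2, or tetherin, which holds budding virions at the cell surface, stood at 41.3, 43.5 and 41.9 FPKM in untreated cultures, 85.3, 91.3 and 92.5 after TNF-α and 77.3, 82.8 and 78.7 when WBT was added. The replicates of each group lay close together, and the Con and TNF-α values of both genes were far apart. The log2 fold change was 1.09 (SE 0.04, adjusted p = 3.07e-06 in limma) for Bst2 and 0.58 (SE 0.04, adjusted p = 9.55e-05 in limma) for Ifitm3. Bst2 is also used as a marker of mouse plasmacytoid dendritic cells, and Siglech, a defining marker of these cells, was listed at 0 in all 9 libraries. Of 9 listed lymphocyte and plasmacytoid dendritic cell markers, 4 were at 0 throughout, and Bst2 and Tcf4 lay above 1 FPKM throughout. Tcf4 ranged from 30.3 to 43.8 FPKM, and whether such cells were present was not tested.

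All 3 listed members of the PARP family, which attach ADP-ribose to proteins, rose. Parp14 measured 7.97, 7.78 and 7.50 FPKM without treatment, 17.6, 19.1 and 18.9 under TNF-α and 17.1, 17.5 and 18.6 under TNF-α plus WBT, a log2 fold change of 1.24 with TNF-α (SE 0.05, adjusted p = 5.34e-06 in limma). Parp9 measured 15.3, 14.5 and 12.3 FPKM in Con, 28.8, 22.7 and 28.5 in the TNF-α cultures and 26.9, 25.6 and 23.4 in those given both (log2 fold change 0.92, SE 0.11, adjusted p = 0.00211). The change of Parp12, at 17.4, 18.4 and 18.3 FPKM in untreated cultures, 22.0, 20.5 and 24.3 after TNF-α and 21.6, 23.3 and 22.0 when WBT was added, was smaller, with a log2 fold change of 0.30 (SE 0.06, adjusted p = 0.0327 in limma). Con and TNF-α did not overlap in any of the 3. Parp9 works together with the ubiquitin ligase Dtx3l, and both genes lie back to back on chromosome 16 with 458 shared exon bases on opposite strands. Dtx3l rose as well, by a log2 fold change of 0.73 (SE 0.05, adjusted p = 5.20e-05 in limma). The sources used here do not state whether strand was kept, so reads from the shared bases cannot be told apart. Parp14, Ifi35, Eif2ak2, Herc6 and Igtp also share 110, 290, 174, 1269 and 162 exon bases with other gene models.

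Of the 5 nucleic acid sensors, 2 rose with TNF-α. Ddx58, which encodes the RNA helicase RIG-I, stood at 11.6, 12.6 and 11.7 FPKM without treatment, 23.1, 23.5 and 21.9 under TNF-α and 20.8, 23.4 and 19.9 under TNF-α plus WBT (log2 fold change 0.92, SE 0.07, adjusted p = 8.84e-05 in limma). Protein-coding transcripts held 40.9% of its value over the 9 libraries, and 41.6% was assigned to the processed transcript Ddx58-205. Zbp1, a sensor of left-handed nucleic acids that can start necroptosis, measured 1.29, 1.35 and 1.24 FPKM in Con, 3.46, 3.15 and 2.39 in the TNF-α cultures and 2.62, 4.52 and 2.93 in those given both (log2 fold change 1.14, SE 0.21, adjusted p = 0.0185). The Con values of Zbp1 lay within a narrow band below all 6 stimulated libraries. Eif2ak2, the kinase PKR that halts translation on sensing double-stranded RNA, stood at 8.60, 9.51 and 8.99 FPKM in untreated cultures, 11.7, 10.8 and 11.0 after TNF-α and 10.4, 11.3 and 12.3 when WBT was added. Its TNF-α and Con values did not overlap, but the adjusted p of 0.0517 in limma missed the threshold (log2 fold change 0.30, SE 0.07). Ifih1, which encodes the RNA sensor MDA5, had 1.09 ± 0.0473 FPKM (SD, n = 3) in Con and 1.51 ± 0.0206 with TNF-α. These groups did not overlap, and the adjusted p was 0.103 in limma. Dhx58, or LGP2, had 2.02 ± 0.374 and 2.30 ± 0.330 FPKM, with overlapping groups.

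Of the 5 listed members of the OAS family, Oasl2, an OAS-like protein, was the one called and the one with a mean above 1 FPKM. It stood at 1.19, 1.87 and 1.38 FPKM without treatment, 2.98, 3.12 and 2.20 under TNF-α and 2.67, 2.89 and 2.20 under TNF-α plus WBT (log2 fold change 0.87 with TNF-α, SE 0.20, adjusted p = 0.0493 in limma), and protein-coding transcripts held 55.9% of its value. The listed OAS enzymes proper, which make the second messenger that activates RNase L, were low: Oas2 and Oas3 reached at most 0.732 and 0.689 FPKM in any library and Oas1a at most 0.0849. Their paralogs Oas1b and Oas1c, which are not among the 47 and were named after their values were seen, had means of 1.14 and 1.15 FPKM over the 9 libraries (adjusted p = 0.188 and 0.414 in limma with TNF-α). Oasl1, the neighbour of Oasl2 on chromosome 5, was listed at 0 in all libraries but Con replicate 1.

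Among the immunity-related GTPases, which act on pathogen vacuoles, 1 of 4 rose, where 2.94% of all tested genes were called higher. Irgm1, a regulator of the other members, stood at 19.0, 21.2 and 19.1 FPKM in Con, 22.5, 23.6 and 22.9 in the TNF-α cultures and 20.7, 20.4 and 20.0 in those given both, a log2 fold change of 0.22 with TNF-α (SE 0.05, adjusted p = 0.0440 in limma). Without overlap, the TNF-α values exceeded those of Con by a small margin, and the call was lost under 13 of 19 other settings. Igtp, or Irgm3, had 1.78 ± 0.228 FPKM (SD, n = 3) in Con and 2.56 ± 0.293 with TNF-α, with no overlap and an adjusted p of 0.108 in limma. Iigp1 stayed at or below 0.26 FPKM in all 9 libraries. It had 0.0200 ± 0.00489 FPKM (SD, n = 3) in Con and 0.124 ± 0.0769 with TNF-α, an estimated 1 to 2 and 3 to 13.9 fragments per library. Con and TNF-α did not overlap, and the adjusted p was 0.172 in limma (log2 fold change 0.84, SE 0.28).

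Ifi47 varied between replicates more than between groups, and its values were chosen for printing after they had been seen to vary. They were 18.7, 18.9 and 17.2 FPKM in untreated cultures, 10.9, 14.6 and 27.3 after TNF-α and 3.54, 23.9 and 24.0 when WBT was added. The Con values lay close together and within the range of each stimulated group. The transcript that carried the gene changed from library to library: Ifi47-201 held 1.53 FPKM in Con replicate 1 and 17.2 and 15.7 in the other Con libraries, while Ifi47-202 held 16.1 FPKM in that library and 0.423 and 0.0031 in the others. In TNF-α+WBT replicate 1 both were low, at 1.13 and 0.0772 FPKM. The gene shares 111 exon bases with Olfr56 and 106 with Gm12188, which reached at most 0.598 and 1.85 FPKM.

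The ISG15 system was present in part. Isg15, the modifier itself, had 1.78 ± 0.276 FPKM (SD, n = 3) in Con, 3.45 ± 0.916 under TNF-α and 3.24 ± 0.668 when WBT was added. Every TNF-α library lay above every Con library, but the adjusted p of 0.0567 in limma missed the threshold (log2 fold change 0.90, SE 0.22). Trim25, a ligase that can conjugate ISG15 and that activates RIG-I, had the highest mean of this group over the 9 libraries and measured 2.81, 3.25 and 7.45 FPKM without treatment, 2.92, 2.68 and 3.29 under TNF-α and 3.63, 3.46 and 3.18 under TNF-α plus WBT. The high value in Con replicate 3 came with 7.41 FPKM of the transcript Trim25-203, and the other 8 libraries lay between 2.68 and 3.63 FPKM. With TNF-α its mean of 2.96 FPKM lay below those of Isg15 and Herc6. Herc6, the mouse ligase for ISG15, had 2.38 ± 0.464 FPKM in Con and 3.03 ± 0.260 with TNF-α (adjusted p = 0.332 in limma), with overlapping groups. Usp18, which removes ISG15 from proteins and restrains the type I receptor, stayed at or below 0.649 FPKM in every library. The enzymes that load ISG15, which are not among the 47, rose with TNF-α: Uba7, its activating enzyme, by a log2 fold change of 0.52 (SE 0.09, adjusted p = 0.0105 in limma) and Ube2l6, its conjugating enzyme, by 1.21 (SE 0.26, adjusted p = 0.0356 in limma, called in 2 of 9 fits with 1 library left out, those without Con replicate 2 or 3).

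IFIT proteins, which bind foreign RNA and block its translation, differed widely in level. Ifit2 measured 11.2, 10.5 and 10.6 FPKM in Con, 13.1, 11.3 and 12.1 in the TNF-α cultures and 11.8, 11.0 and 11.3 in those given both. Its TNF-α values lay just above those of Con, with a log2 fold change of 0.17 (SE 0.06) and an adjusted p of 0.200 in limma. Ifit3, Ifit3b and Ifit1, which follow Ifit2 on chromosome 19 between positions 34583531 and 34650009, reached at most 0.644, 0.65 and 0.799 FPKM in any library. Ifit1 had 0.118 ± 0.0585 FPKM in Con and 0.401 ± 0.118 with TNF-α, an estimated 2.8 to 9.5 and 17.4 to 26.4 fragments per library, and its log2 fold change of 1.21 (SE 0.43) had an adjusted p of 0.203 in limma. Ifit3 and Ifit3b are near-identical copies, so the division of reads between them is uncertain.

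The MX dynamin-like GTPases, which trap viral nucleocapsids, were low. Mx2 measured 0.607, 0.471 and 0.403 FPKM in untreated cultures, 0.529, 1.06 and 0.522 after TNF-α and 0.934, 0.811 and 0.831 when WBT was added, with overlapping Con and TNF-α values (log2 fold change 0.39, adjusted p = 0.592 in limma). Mx1 stayed at or below 0.945 FPKM in every library, and 26.8% of its value over the 9 libraries was in a protein-coding transcript. For Mx2 that share was 0%, and its transcripts Mx2-202 and Mx2-204, with 34.0% and 18.9% of its value, are annotated as polymorphic pseudogene. These values therefore do not show that a working MX protein was made.

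Of the nucleotide and RNA enzymes, Isg20, an exonuclease that degrades RNA, was the abundant one, at 19.9, 11.9 and 16.1 FPKM without treatment, 13.4, 22.2 and 21.0 under TNF-α and 22.8, 25.4 and 21.1 under TNF-α plus WBT. Con and TNF-α overlapped (log2 fold change 0.23, SE 0.22, adjusted p = 0.710 in limma). Rsad2, or viperin, which makes a chain-terminating nucleotide, reached at most 0.136 FPKM in any library. Cmpk2, the mitochondrial kinase encoded next to it on chromosome 12, reached at most 0.633 FPKM.

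In the remaining group of 11 effectors, Ifi35 and Samd9l rose, where 2.94% of all tested genes were called higher. Ifi35, a leucine zipper protein that binds NMI, stood at 11.4, 11.7 and 10.6 FPKM in Con, 13.3, 15.1 and 14.1 in the TNF-α cultures and 13.2, 14.8 and 13.3 in those given both (log2 fold change 0.33, SE 0.07, adjusted p = 0.0357 in limma). Samd9l, an antiviral protein that represses translation, stood at 3.10, 3.36 and 3.43 FPKM in untreated cultures, 4.39, 4.28 and 4.34 after TNF-α and 4.25, 4.08 and 4.22 when WBT was added (log2 fold change 0.39, SE 0.07, adjusted p = 0.0210). Both changes were small, and in both the TNF-α and Con values did not overlap.

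Ifi27 and Lgals3bp were abundant without a call. Ifi27, a mitochondrial protein, measured 32.6, 36.1 and 28.8 FPKM without treatment, 39.0, 40.5 and 44.5 under TNF-α and 39.1, 49.5 and 40.0 under TNF-α plus WBT, with no overlap between Con and TNF-α and an adjusted p of 0.141 in limma (log2 fold change 0.35, SE 0.11). Lgals3bp, a secreted glycoprotein that binds galectins, measured 42.0, 59.6 and 45.3 FPKM in Con, 47.5, 46.3 and 48.1 in the TNF-α cultures and 47.9, 44.4 and 46.9 in those given both (log2 fold change -0.03, adjusted p = 0.934 in limma). The Lgals3bp value of Con replicate 2 stood above all others, and 43.9 FPKM of it was assigned to the transcript Lgals3bp-205, which held at most 0.640 FPKM elsewhere. Trim30a, a negative regulator of NF-κB, had 1.49 ± 0.165 FPKM (SD, n = 3) in Con and 2.23 ± 0.459 with TNF-α. These groups did not overlap, and the adjusted p was 0.143 in limma. Xaf1, Rtp4 and Sp100 had group means between 1.49 and 4.03 FPKM, and their Con and TNF-α values overlapped. Ifi44, Phf11d and Epsti1 reached at most 0.306, 0.156 and 0.101 FPKM. Ifi44 had 0.0527 ± 0.0309 FPKM (SD, n = 3) in Con and 0.201 ± 0.0846 with TNF-α, with no overlap and an adjusted p of 0.146 in limma.

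**Figure D2:**
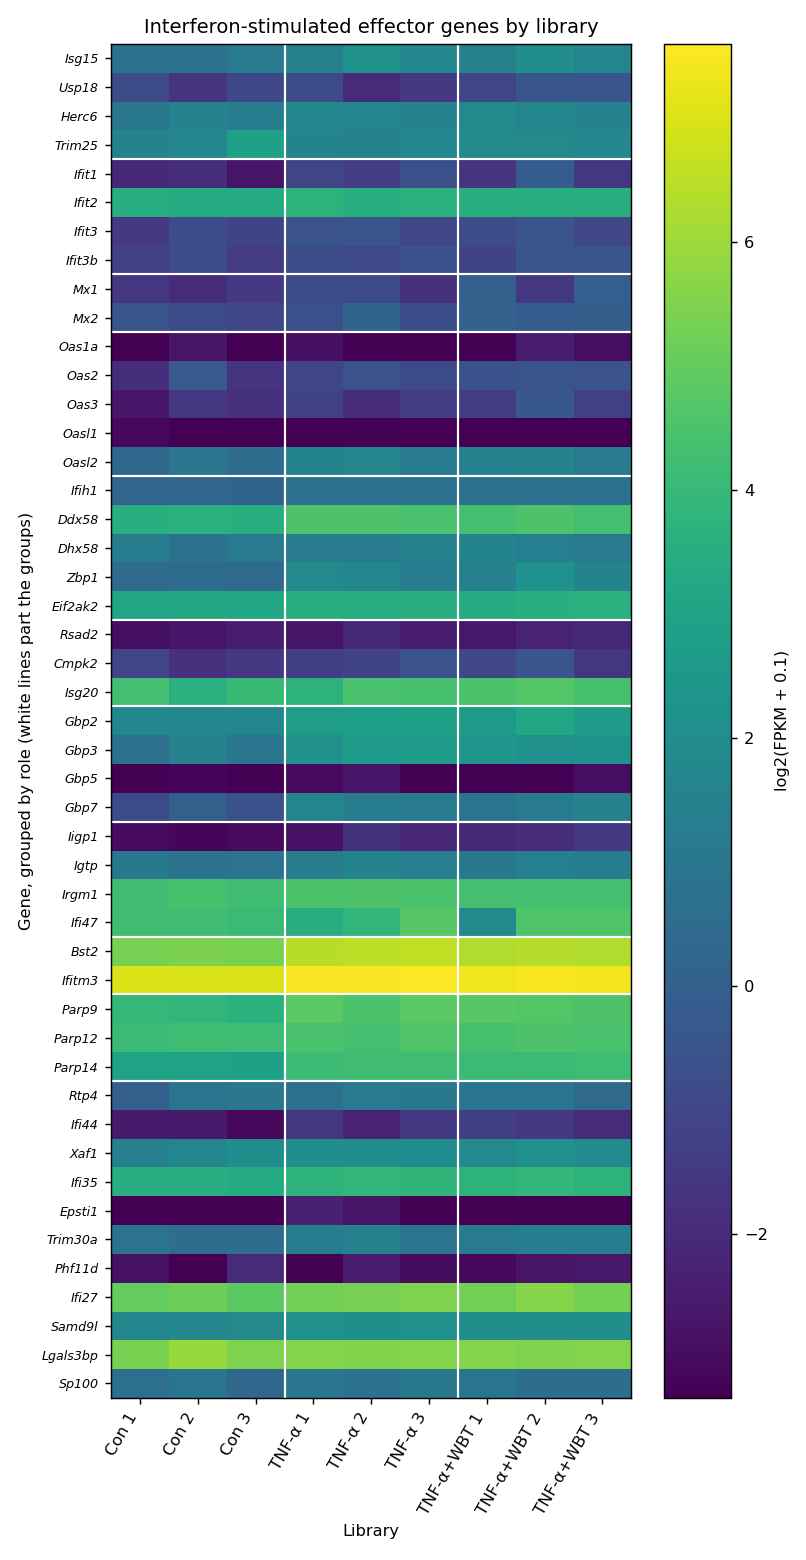
Level of all 47 genes in each of the 9 libraries as log2(FPKM + 0.1), grouped by role, with the 3 Con, 3 TNF-α and 3 TNF-α+WBT libraries from left to right. Ifitm3 and Bst2 form the brightest rows, while Oas1a, Oasl1, Gbp5, Rsad2, Epsti1 and Phf11d are dark throughout, and the pale cell of Trim25 in Con replicate 3 and the dark cell of Ifi47 in TNF-α+WBT replicate 1 stand out.

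The calls lay among the more abundant effector genes. Of the 17 genes with a mean under 1 FPKM, 15 were tested, 0 were called by limma with TNF-α and 3 had an unadjusted p under 0.05. Of all tested genes, 2.94% were called higher, and of those with a mean of at least 1 FPKM 5.09%. The share among all genes under 1 FPKM was not counted, so the 0 is not read as particular to the effector genes. Their median log2 fold change was 0.46, with 12 genes above 0 and 3 below, and that of the 30 more abundant genes was 0.37. The SE ran from 0.20 to 0.46 in the 15 low genes and from 0.04 to 0.31 in the abundant genes other than Ifi47, where it was 0.68.

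**Figure D3:**
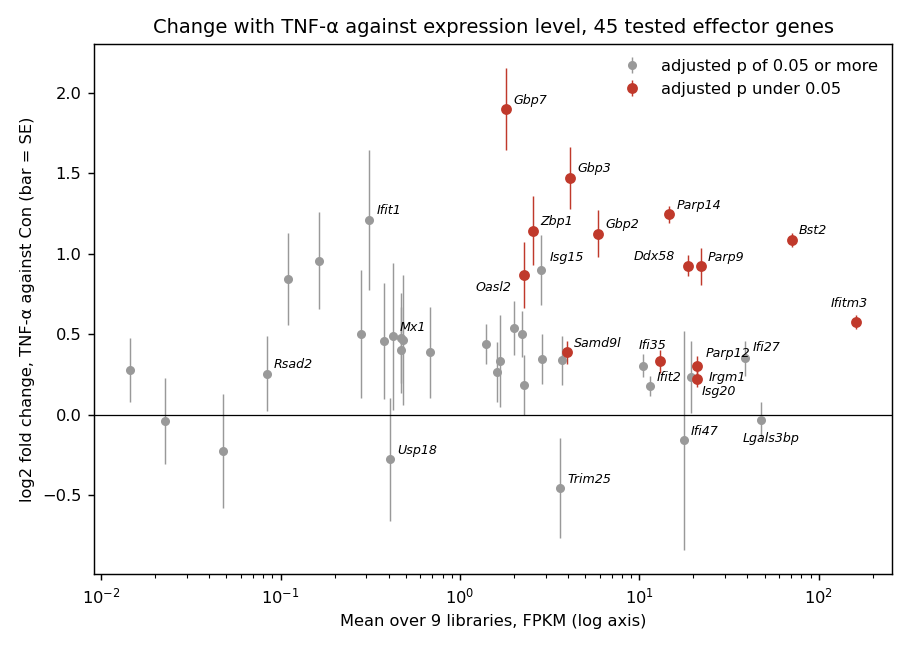
Log2 fold change of TNF-α against Con with its SE for the 45 tested genes, against the mean FPKM over the 9 libraries on a log axis. The 14 red points all have a mean above 1 FPKM and a fold change above 0, from 0.22 for Irgm1 to 1.90 for Gbp7, and the bars widen toward the left.

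No effector gene of the stimulated cultures passed the test for a change with WBT. When WBT was added to TNF-α, 0 of the 45 genes had an adjusted p under 0.05 in limma, where 1 of all 25417 tested genes was called, a higher one (0.00393%). At an unadjusted p under 0.05, 3 effector genes were lower and 0 higher, where 3.43% of all genes were lower and 2.88% higher. None passed the study's thresholds. The median log2 fold change was -0.02, with 21 genes above 0 and 24 below. In 4 genes (Bst2, Ifitm3, Irgm1 and Samd9l) every TNF-α+WBT library lay below every TNF-α library and in 1 (Ifih1) every one lay above, where 5.61% and 5.39% of all genes did so. The comparison uses the same TNF-α libraries as that with Con, so the estimates are not independent of each other.

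The 3 genes with an unadjusted p under 0.05 were among the most precisely measured. Bst2 had a log2 fold change of -0.17 (95% confidence interval -0.27 to -0.07, adjusted p = 0.555 in limma), from 89.7 ± 3.82 FPKM (SD, n = 3) with TNF-α to 79.6 ± 2.82 with TNF-α+WBT. For Irgm1 the values were -0.18 (-0.29 to -0.06, adjusted p = 0.616 in limma), and for Ifitm3 -0.13 (-0.22 to -0.03, adjusted p = 0.682 in limma). The TNF-α+WBT means were 0.887, 0.884 and 0.916 times the TNF-α means, and none of the differences held after adjustment over all genes. The interval for Parp14 was -0.18 to 0.06 around a log2 fold change of -0.06, and that for Ddx58 -0.25 to 0.05 around -0.10. The intervals of the guanylate-binding proteins were wider, at -0.34 to 0.32 for Gbp2, -0.65 to 0.23 for Gbp3 and -0.79 to 0.36 for Gbp7, and leave room for a change of either direction.

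**Figure D4:**
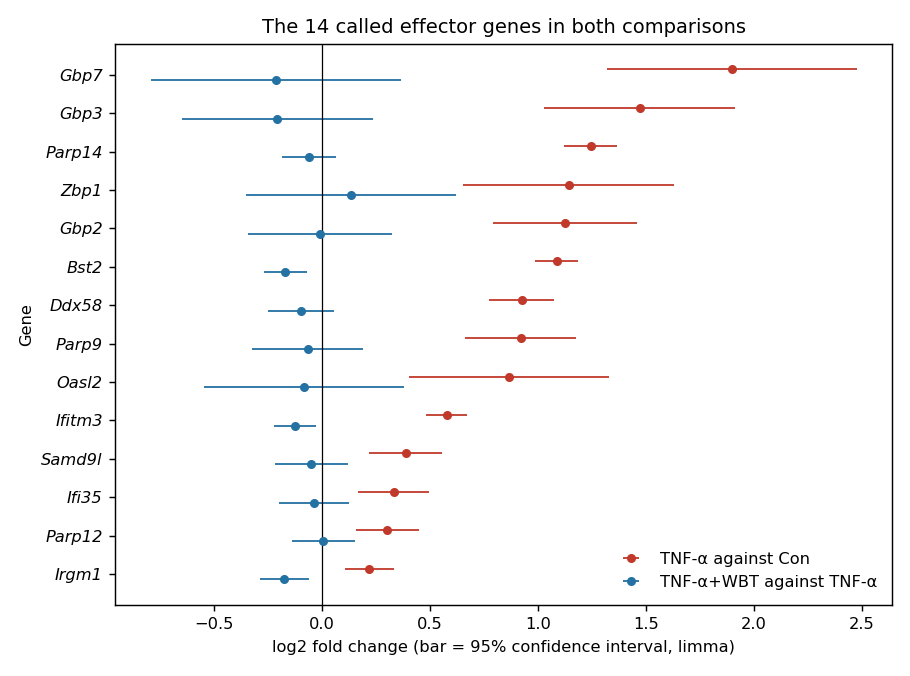
Log2 fold changes of the 14 genes called with TNF-α, with 95% confidence intervals from limma, for TNF-α against Con (red) and TNF-α+WBT against TNF-α (blue), which share the TNF-α libraries. The red intervals all lie above 0, and the blue ones include 0 except for Bst2, Ifitm3 and Irgm1, whose adjusted p-values were 0.555, 0.682 and 0.616.

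Against untreated cultures, the TNF-α+WBT libraries had 12 effector genes called higher in limma, where 2.31% of all genes were called higher. None of the effector genes was called lower, for which no share of all genes is given here. The 12 are named next. They were Bst2, Ddx58, Eif2ak2, Gbp2, Gbp3, Gbp7, Ifitm3, Parp9, Parp12, Parp14, Samd9l and Zbp1. With 1 library left out, Samd9l was called in 0 of 9 fits, Eif2ak2 in 1 (without TNF-α+WBT replicate 1), Parp12 in 2 (without TNF-α replicate 2 or 3) and Zbp1 in 8 (not without Con replicate 3), and the other 8 genes were called in each. The log2 fold changes were 1.68 for Gbp7, 1.27 for Zbp1, 1.26 for Gbp3, 1.18 for Parp14, 1.11 for Gbp2 and 0.91 for Bst2, beside 1.90, 1.14, 1.47, 1.24, 1.12 and 1.09 for TNF-α alone, both against the same Con libraries. Irgm1 had a log2 fold change of 0.04 against Con (adjusted p = 0.785 in limma), and its TNF-α+WBT values lay within the range of the Con libraries. The median over the 45 genes was 0.45, and in 24 of them every TNF-α+WBT library lay above every Con library, where 10.2% of all genes did so.

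The interferons themselves were barely detected. Of 21 interferon genes listed, 14 were at 0 FPKM in all 9 libraries and 20 had at most an estimated 3 fragments in every library. None of the 3 that could be tested was called in limma. Ifna7 had an unadjusted p under 0.05 in limma, lower with TNF-α, but only an estimated 0.3 to 0.8 fragments per Con library and 0 with TNF-α. The most abundant of the 21, Ifnz, measured 0.141, 0.384 and 0.183 FPKM in Con and 0.107, 0.197 and 0.111 with TNF-α, with overlapping groups.

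The receptors and transducers of interferon signals were expressed, and some rose with TNF-α. Of all tested genes, 2.94% were called higher with TNF-α and 1.93% lower. Of 6 receptor chains, the 2 of the interferon-γ receptor were called higher: Ifngr2, its signalling chain, measured 12.3, 10.5 and 10.6 FPKM in Con and 27.7, 27.5 and 26.9 with TNF-α (log2 fold change 1.29, SE 0.06, adjusted p = 9.26e-06 in limma). Ifngr1, its ligand-binding chain and the most abundant of the 6, measured 34.9, 26.0 and 33.4 FPKM without treatment and 43.3, 54.0 and 45.8 after it (log2 fold change 0.60, SE 0.14, adjusted p = 0.0461), a call that was lost with a pseudocount of 1, with median centring, with quantile normalization and on leaving out any 1 library other than TNF-α+WBT replicate 1. Ifnar1 and Ifnar2, the chains of the type I receptor, had log2 fold changes of -0.03 and 0.17 (adjusted p = 0.959 and 0.538 in limma).

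Of 5 signal transducers, Jak2 and Stat2 were called higher, with log2 fold changes of 0.32 and 0.31 (adjusted p = 0.0368 and 0.0379 in limma). The shares of all tested genes called with TNF-α were 2.94% higher and 1.93% lower. With 1 library left out, Jak2 was called in 1 of 9 fits (without TNF-α replicate 1) and Stat2 in 2 (without TNF-α replicate 2 or TNF-α+WBT replicate 2). Jak1 was the most abundant, at 43.3 ± 0.950 FPKM (SD, n = 3) in Con and 41.4 ± 0.483 with TNF-α. Of 6 IRF factors, Irf1 and Irf5 were called higher. Irf1, which binds ISRE sequences and was the most abundant of the 6, measured 19.3, 19.2 and 19.6 FPKM in untreated cultures, 33.2, 31.6 and 29.3 after TNF-α and 32.6, 25.3 and 24.0 when WBT was added (log2 fold change 0.69, SE 0.10, adjusted p = 0.00608 in limma), and Irf5 had a log2 fold change of 1.21 (SE 0.14, adjusted p = 0.00155 in limma). Of 6 inhibitors of interferon signalling, 0 were higher and Socs3, an inhibitor of JAK kinases, was lower (log2 fold change -0.22, SE 0.05, adjusted p = 0.0417 in limma, called in 1 of 9 fits with 1 library left out, that without TNF-α+WBT replicate 1), while Ptpn11, the most abundant, had a log2 fold change of 0.06. None of these genes was called between TNF-α+WBT and TNF-α in limma. At an unadjusted p under 0.05, 1 IRF factor was lower and 2 inhibitors were higher, where 3.43% of all genes were lower and 2.88% higher.

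**Figure D5:**
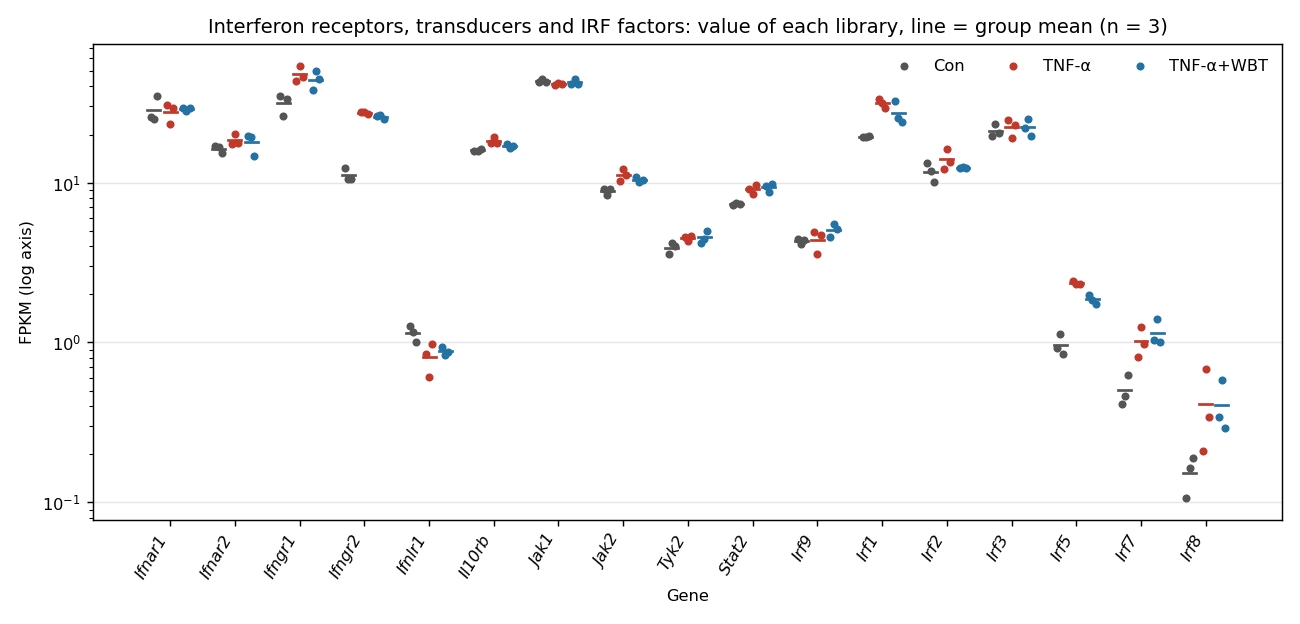
FPKM of 6 interferon receptor chains, 5 signal transducers and 6 IRF factors on a log axis, with 1 point per library and a line at each group mean (n = 3 libraries). Ifngr2, Irf1 and Irf5 show TNF-α points apart from the Con points, while Ifnar1, Jak1 and Irf3 overlap or lie close together.

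Other interferon-stimulated genes, among them paralogs of the 47, were counted in the same way. Of 54 listed, 53 were in the table, 45 were tested and 11 were called higher with TNF-α and 0 lower in limma. Of all tested genes, 2.94% were called higher and 1.93% lower. The median log2 fold change of the list was 0.32. This list too was chosen with earlier results of these data known, so its counts are a description only. When WBT was added, 0 of the 45 were called in limma. At an unadjusted p under 0.05, 3 were lower and 0 higher, where 3.43% of all genes were lower and 2.88% higher. In 6, Cxcl10 among them, every TNF-α+WBT library lay below every TNF-α library and in 0 above, where 5.61% and 5.39% of all genes did so. Cxcl10 and Cxcl11, chemokines that draw T cells, had the largest changes. Cxcl10 measured 0.506, 0.366 and 0.133 FPKM without treatment, 6.60, 7.52 and 5.99 under TNF-α and 4.02, 4.76 and 4.44 under TNF-α plus WBT (log2 fold change 4.07, SE 0.31, adjusted p = 1.23e-04 in limma). The log2 fold change was 2.57 for Cxcl11, 2.26 for Gbp6, 0.41 for the RNA helicase Mov10 and 0.37 for Parp10 (adjusted p = 4.08e-04, 0.00316, 0.00228 and 0.00618 in limma). Ifitm2, the most abundant of this list and the neighbour family member of Ifitm3, measured 207, 202 and 210.1 FPKM in Con and 228, 221 and 225 with TNF-α (log2 fold change 0.12, adjusted p = 0.0575 in limma). Cxcl10 and Cxcl11 are targets of NF-κB as well as of interferon signals.

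Targets of NF-κB, the factor that TNF-α activates directly, moved in the same comparison too. Of 15 listed, 10 were called higher with TNF-α in limma and 0 lower, where 2.94% of all tested genes were called higher and 1.93% lower. The median log2 fold change was 1.23, beside 14 of 45 called and a median of 0.40 for the effector genes. Ccl2, a monocyte chemokine and the most abundant of the list, had a log2 fold change of 2.88 (SE 0.06, adjusted p = 8.55e-08 in limma). Those of Cxcl1, Vcam1, Nfkbia and Nfkb2 were 2.84, 2.13, 1.70 and 1.23 (adjusted p = 1.62e-06, 2.08e-07, 6.36e-07 and 6.22e-06 in limma). When WBT was added, 0 of the 15 had an adjusted p under 0.05 in limma, where 1 of all 25417 tested genes did. At an unadjusted p under 0.05, 5 were lower and 0 higher, where 3.43% of all genes were lower and 2.88% higher. The comparisons with Con and with WBT use the same TNF-α libraries, so their estimates are not independent. Both lists were chosen with earlier results of these data known, so their counts and their contrast are a description only. The difference between the lists was not tested.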

How the data were processed

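Poly(A) RNA of 9 libraries, 3 per group, was sequenced as paired ends. The authors deposited FPKM values per gene and per transcript, from reads aligned with HISAT2 and quantified with StringTie according to the workflow drawn in the paper. Versions and the genome build are not given in the sources used here. GENCODE M21, which gave symbols and positions, held 98.0% of the gene IDs. The 47 genes, their roles and the context lists were chosen with earlier results of these data known. The 25417 genes with a value over 0 in 3 or more libraries were fitted with limma 3.58.1 in R 4.3.3 (lmFit, eBayes with a trend) on log2(FPKM + 0.1), with a mean per group. P-values were two-sided and adjusted over all tested genes. Values by library were given for called genes, the 5 genes with the highest means and the highest of each role group. Depth was estimated from the steps of low FPKM values of genes with a single transcript. Between 53.1% and 57.4% of them lay within 0.1 of a whole fragment, where 20.0% would by chance, and 63.0% to 65.3% did at double the depth, so fragment numbers are approximate and may be 2 times too low. Alternatives covered the pseudocount, filter, trend, libraries fitted, scaling, transcript sums, a replicate block and each library left out. The paper calls the replicates biological. 1 gene was left out of the context lists and is not reported here.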

Additional observations from a re-analysis of the deposited data

How the results depend on the processing

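For TNF-α against Con, no direction of the 14 called genes reversed under 19 other settings, and Bst2, Ddx58, Gbp2, Gbp3, Gbp7, Ifitm3, Parp9 and Parp14 were called under each of them. The call with TNF-α was lost under 13 settings for Irgm1, 11 for Oasl2, 9 each for Ifi35 and Parp12, 7 for Samd9l and 5 for Zbp1. The number of genes called with TNF-α was 14, 9 with only the 2 groups compared, and 8 to 12 with 1 library left out, where Con replicate 1 gave 8. With a mean of at least 1 FPKM it was 17, with Isg15, Ifih1 and Eif2ak2 added. Past the study's thresholds, TNF-α against Con had 7 genes and 4 with a pseudocount of 1, and TNF-α+WBT against Con had 9, 1 with a pseudocount of 1 and 5 with a mean of at least 1 FPKM. For WBT added to TNF-α the number past them was 0, and 0 to 1 with 1 library left out (Usp18 without TNF-α replicate 1 or TNF-α+WBT replicate 1, Mx1 without TNF-α+WBT replicate 2). The interferon receptors called fell from 2 to 1 with a pseudocount of 1, with median centring and with quantile normalization, and Ifngr1 was called in 1 of the 9 fits with 1 library left out. The cause of these differences was not tested. Same-numbered libraries deviated together with correlations of -0.067 to 0.095 and no label says that numbers mark a batch, so the values reported come without a replicate block. With the replicate block as a pairing, 11 genes were called with TNF-α, 10 with TNF-α+WBT against Con and 0 between the stimulated groups. Whether depth limits the calls of the 17 genes with a mean under 1 FPKM was not tested.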
